A study of Mus musculus with 4 samples.

Results

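The 8 genes described here encode secreted neurotrophic factors and receptors, not all of which have their ligand in the set. Nenf, Ptn, Mdk and Bdnf are the factors, and Ntrk2, Ntrk3, Ptprz1 and Alk are the receptors. They were taken by symbol from the 33696 genes listed in the count tables of a single-nucleus RNA sequencing study of mouse hypothalamus, and each symbol matched 1 row. The set was selected on earlier results of the same libraries, namely levels per class and differences between the treatment groups, and no threshold was stated. Ratios between the groups are therefore given as descriptions, beside the fit over all genes.

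Mice of the treated group received imidazole propionate (ImP), which gut bacteria make from histidine, at 350 µg per day for 2 weeks through an intraperitoneal osmotic pump. Vehicle mice received sterile water with DMSO, which was also the solvent of ImP. All mice were wild-type C57BL/6J with a conventional microbiota, with age and sex not given in the labels. The titles of all libraries read SPF (specific pathogen-free) and Baseline. Each group had 2 libraries (ImP 3 and ImP 4, vehicle 1 and vehicle 2). Whether 1 mouse or several stand behind a library is not stated, so p-values cover only how far libraries of a group differ.

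Brain-derived neurotrophic factor, the product of Bdnf, is made as a precursor, is released after cleavage and signals through the receptor tyrosine kinase TrkB, encoded by Ntrk2. TrkC, encoded by Ntrk3, is the receptor of neurotrophin-3, and loss of Bdnf or TrkB function in mice leads to overeating and obesity. Pleiotrophin (Ptn) and midkine (Mdk) are heparin-binding factors that bind the chondroitin sulfate chains of the receptor phosphatase Ptprz1, while Alk is a receptor tyrosine kinase whose loss leaves mice thin. Neudesin, the product of Nenf, is a secreted protein with a cytochrome b5-like domain and neurotrophic activity, and mice without it resist diet-induced obesity. No sequence of these genes or proteins is shown, because the counts are per gene and bear on no region within it.

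The files held 15471 and 16348 barcodes in ImP 3 and ImP 4, against 11255 and 13723 in vehicle 1 and vehicle 2, with 48060194 to 51945297 unique molecular identifiers (UMIs) per library. Filters left 54422 nuclei, with median UMIs of 2852 and 2820 in the ImP libraries and 3757 and 3179 in the vehicle libraries. Nuclei were placed in a class by its marker genes, none of which is among the 8 genes. This gave 34693 neuron-like, 3554 astrocyte-like, 3389 oligodendrocyte-like, 427 oligodendrocyte precursor-like (precursor-like) and 432 microglia-like nuclei, and all 10 markers of a class were detected in that class in every library. Tanycyte-like, ependymal-like, endothelial-like, mural-like and fibroblast-like nuclei numbered 31 to 60 each over all libraries. Unassigned nuclei made up 19.7% and 31.9% in ImP 3 and ImP 4, and 14.4% and 16.3% in vehicle 1 and vehicle 2. ImP 4 stood apart: the pituitary hormone mRNA Gh had a UMI in 97.2% of its kept nuclei, against 6.76% in ImP 3 and 4.42% and 1.22% in vehicle 1 and vehicle 2, and it held 93 of the 94 pituitary-like nuclei. Pairs of libraries shared 39 to 76 barcodes, at most 0.524% of a library.

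Levels are given as CPM, the UMIs of a gene per 1000000 UMIs summed over the nuclei of a class in a library, and levels are compared for the same gene only. Shares of nuclei with a UMI are given after thinning nuclei to 1000 UMIs, and nuclei with fewer UMIs were left out. This kept 82 of 139 and 68 of 92 microglia-like nuclei in ImP 3 and ImP 4. In vehicle 1 and vehicle 2 it kept 59 of 81 and 81 of 120. Of neuron-like nuclei it kept 9354 of 9493 and 8944 of 9038 in the ImP libraries, and 7362 of 7428 and 8601 of 8734 in the vehicle libraries. Free RNA in the droplets contributes to every nucleus: the summed mRNAs of the neuropeptides Hcrt, Pmch, Oxt and Avp, which glia do not make, stood in astrocyte-like nuclei at 227% and 227% of the neuron-like level in ImP 3 and ImP 4, and at 201% and 233% in vehicle 1 and vehicle 2. In microglia-like nuclei that figure was 301% and 268% in the ImP libraries and 267% and 249% in the vehicle libraries. The peptide sum was higher in both ImP libraries than in both vehicle libraries in all 5 large classes, with log2 ratios of the means from 0.74 in neuron-like to 0.87 in microglia-like nuclei. A glial share at or below that of microglia-like nuclei is therefore not read as expression. A neuron-like share at or below the microglia-like share decides nothing, because the peptide mRNAs stood higher in microglia-like than in neuron-like nuclei. Levels relative to neuron-like nuclei are set beside the peptide mRNAs.

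Neuron-like nuclei held most UMIs of all 8 genes, as they held 78.8% of all UMIs of kept nuclei. Against that share, Alk (87.0%), Ntrk3 (85.6%) and Bdnf (85.6%) were concentrated in neuron-like nuclei. Ptn (54.8%), Ptprz1 (58.7%) and Mdk (60.3%) were spread most over other nuclei. The largest part of that lay in unassigned nuclei, which held 27.2% of Ptn, 26.1% of Ptprz1 and 22.8% of Mdk UMIs, with 15.0% of all UMIs. Astrocyte-like nuclei, with 2.68% of all UMIs, held 11.7% of Ptprz1, 9.96% of Mdk and 7.17% of Ntrk2 UMIs. Oligodendrocyte-like nuclei, with 2.55% of all UMIs, held 9.49% of Ptn UMIs.

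**Figure D1:**
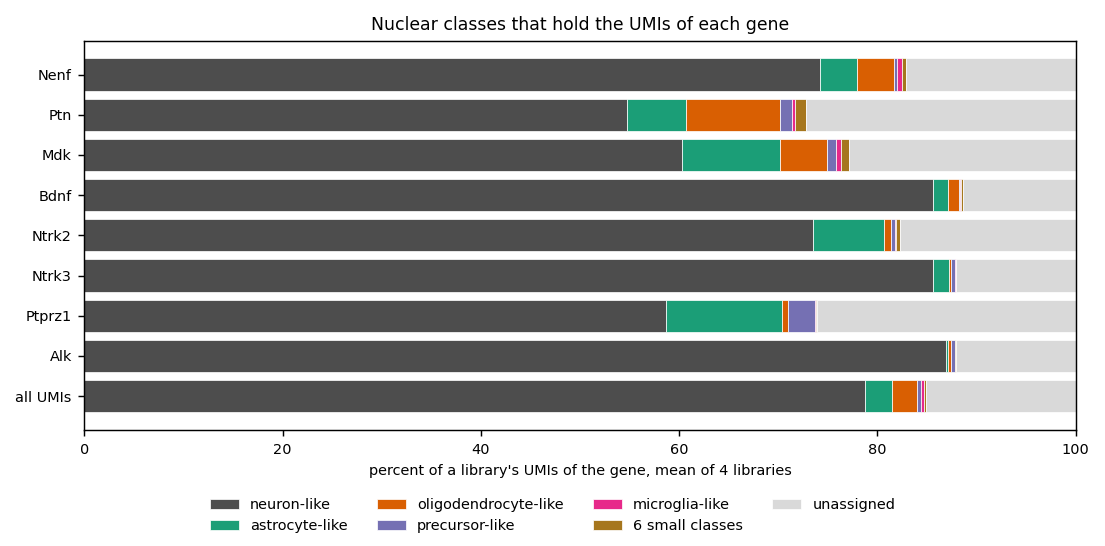
Percent of a library's UMIs of each gene (x axis, mean of the 4 libraries) held by each nuclear class, with all UMIs of kept nuclei as the lowest bar. Ptn, Mdk and Ptprz1 had the smallest neuron-like shares, at 54.8%, 60.3% and 58.7%, and Alk the largest, at 87.0%.

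Ptn was higher in oligodendrocyte-like, precursor-like and astrocyte-like than in neuron-like nuclei. Oligodendrocyte-like nuclei had 714 and 811 CPM in ImP 3 and ImP 4, against 604 and 707 CPM in vehicle 1 and vehicle 2. Precursor-like nuclei had 526 and 614 CPM in the ImP libraries, against 537 and 523 CPM in the vehicle libraries. Astrocyte-like nuclei had 443 and 473 CPM in the ImP libraries, against 357 and 400 CPM in the vehicle libraries. Both ImP libraries were above both vehicle libraries in oligodendrocyte-like and astrocyte-like nuclei, and the groups overlapped in precursor-like nuclei. Relative to neuron-like nuclei of the same library, Ptn stood at 480% to 598% in oligodendrocyte-like, 354% to 504% in precursor-like and 279% to 338% in astrocyte-like nuclei, above the range of the peptide mRNAs in each of these classes. After thinning, 48.7% ± 5.45 of oligodendrocyte-like, 41.6% ± 5.19 of precursor-like and 31.7% ± 3.06 of astrocyte-like nuclei had a Ptn UMI (SD, n = 4 libraries). The share was 22.9% ± 5.47 in microglia-like nuclei, a class not known to make pleiotrophin, and 13.5% ± 3.04 in neuron-like nuclei. Microglia-like Ptn stood at 185% to 207% of the neuron-like level, below the peptide mRNAs there (249% to 301%). The microglia-like share therefore cannot decide whether neurons express Ptn. Over 13 neuron groups, mean Ptn levels ran from 54.0 to 220 CPM.

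Small classes at the ventricle and the vessels also held Ptn, with few nuclei behind each value. Tanycyte-like nuclei, 7 to 22 per library, had 1635 and 1486 CPM in ImP 3 and ImP 4, against 1047 and 1059 CPM in vehicle 1 and vehicle 2, from 22 to 57 UMIs per library. Mural-like nuclei, 7 to 12 per library, had 1160 and 1038 CPM in the ImP libraries, against 1405 and 1324 CPM in the vehicle libraries. These classes were too small for a test.

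Mdk, the close relative of Ptn, was sparse. Astrocyte-like nuclei had 36.8 and 48.6 CPM in the ImP libraries, against 26.1 and 33.4 CPM in the vehicle libraries. That is 424% and 471% of the neuron-like level in the ImP libraries and 520% and 523% in the vehicle libraries, above the peptide mRNAs. Oligodendrocyte-like nuclei had 26.6 and 28.2 CPM in the ImP libraries, against 10.9 and 10.7 CPM in the vehicle libraries, from 36 and 26 UMIs, against 15 and 14. Both ImP libraries were above both vehicle libraries in each of these classes. Relative to neuron-like nuclei, however, oligodendrocyte-like Mdk stood at 306% and 273% in the ImP libraries and 217% and 167% in the vehicle libraries, in and around the range of the peptide mRNAs there (217% to 229%). Neuron-like nuclei had 8.68 and 10.3 CPM in the ImP libraries, against 5.01 and 6.38 CPM in the vehicle libraries, too low for a fold change to be given here.

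Nenf UMIs were found in all 5 large classes. In neuron-like nuclei it had 76.9 and 89.3 CPM in ImP 3 and ImP 4, against 53.1 and 59.9 CPM in vehicle 1 and vehicle 2. In astrocyte-like nuclei it had 138 and 158 CPM in the ImP libraries, against 57.2 and 78.2 CPM in the vehicle libraries. In oligodendrocyte-like nuclei it had 128 and 154 CPM in the ImP libraries, against 76.3 and 84.5 CPM in the vehicle libraries. Both ImP libraries lay above both vehicle libraries in these classes, and likewise in precursor-like and in microglia-like nuclei. So did 17% of all tested genes in neuron-like, 20.3% in astrocyte-like, 22.3% in oligodendrocyte-like and 18.6% in precursor-like nuclei. Microglia-like nuclei had only 20 and 19 Nenf UMIs in ImP 3 and ImP 4, against 9 and 18 in vehicle 1 and vehicle 2. That class was not fitted, so no share of all genes is given for it. The thinned share with a Nenf UMI was 7.61% ± 1.84 in neuron-like, 10.0% ± 4.43 in astrocyte-like and 11.3% ± 3.76 in oligodendrocyte-like nuclei (SD, n = 4). It ran from 6.78% to 19.1% over the 4 libraries in microglia-like nuclei. In glia-like nuclei Nenf stood at 66.2% to 194% of the neuron-like level, below the peptide mRNAs of the same class in every library. At this depth no class can be named as the source of Nenf mRNA.

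Bdnf mRNA was found mainly in neurons. Neuron-like nuclei had 31.6 and 30.7 CPM in the ImP libraries, against 28.9 and 29.6 CPM in the vehicle libraries. Oligodendrocyte-like nuclei had 21.4 and 16.2 CPM in the ImP libraries, against 5.81 and 7.62 CPM in the vehicle libraries, from 29 and 15 UMIs, against 8 and 10. Both ImP libraries were above both vehicle libraries in both classes. The oligodendrocyte-like level was 67.9% and 53.0% of the neuron-like level in the ImP libraries and 20.1% and 25.7% in the vehicle libraries, below the peptide mRNAs. A Bdnf UMI was found in 2.87% ± 0.102 of neuron-like nuclei after thinning, against 1.29% ± 1.00 of microglia-like and 1.36% ± 0.902 of oligodendrocyte-like nuclei (SD, n = 4).

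**Figure D2:**
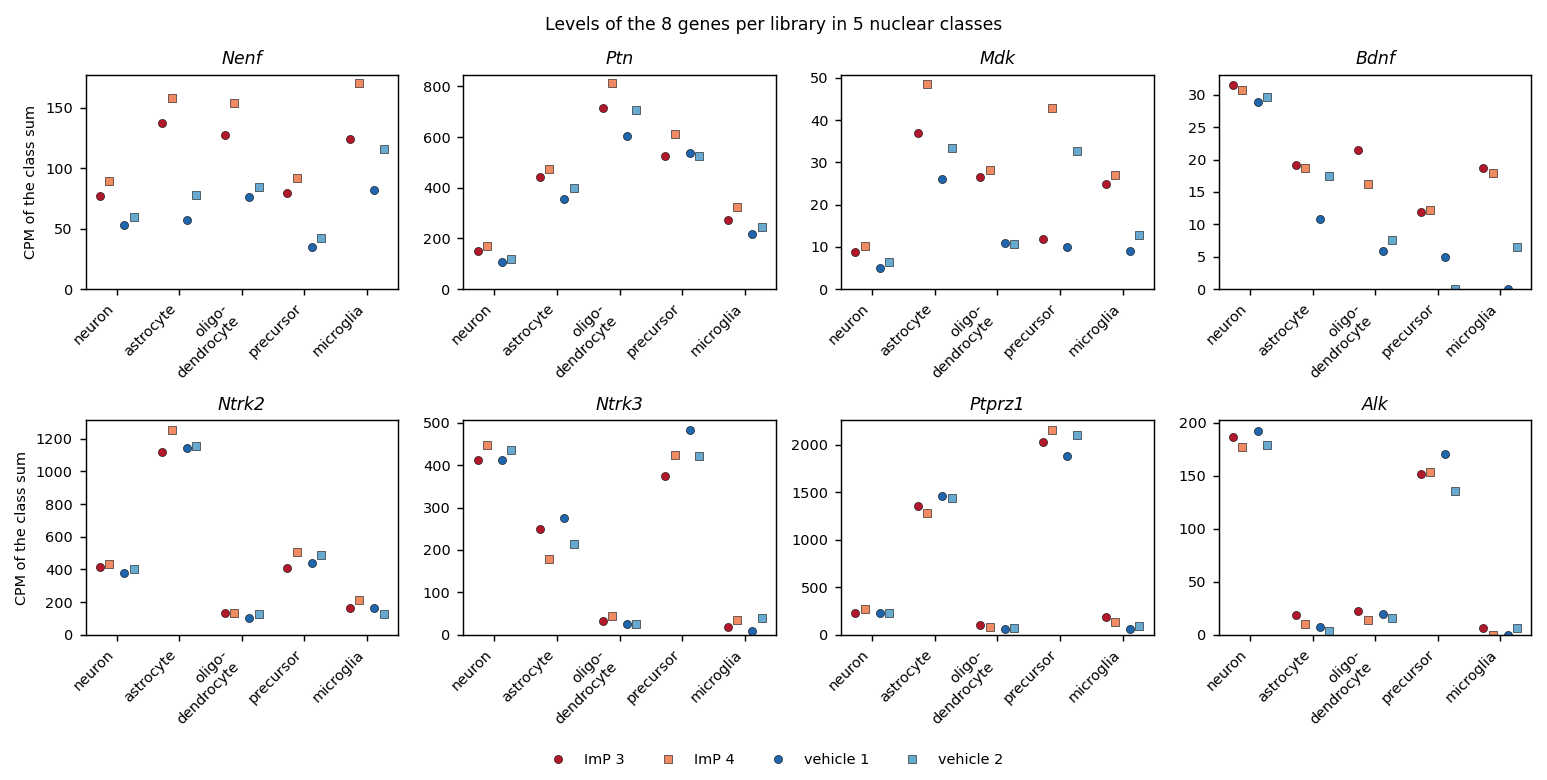
CPM of the class sum (y axis, linear, from 0, scaled per gene) of each gene in 5 nuclear classes, 1 point per library, with ImP 3 and ImP 4 left of vehicle 1 and vehicle 2. Nenf was higher in both ImP libraries in every class shown, where 17% to 22.3% of all tested genes were (microglia-like nuclei were not fitted). Ntrk2, Ntrk3, Ptprz1 and Alk differed more between classes than between groups.

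Bdnf was not spread evenly over neurons. Neuron-like nuclei gated as glutamatergic by their vesicular glutamate transporter mRNAs, 840 to 987 per library, had 53.1 and 56.9 CPM in ImP 3 and ImP 4, against 51.8 and 54.8 CPM in vehicle 1 and vehicle 2. Those gated as GABAergic by Slc32a1, Gad1 and Gad2, 2048 to 2279 per library, had 12.1 and 13.5 CPM in the ImP libraries, against 8.46 and 12.1 CPM in the vehicle libraries. Most neuron-like nuclei, 4378 to 6586 per library, passed neither gate because they had neither or both kinds of transmitter mRNA. These averaged 34.0 ± 0.952 CPM of Bdnf (SD, n = 4), so the contrast below covers only the gated part of the neurons. The ratio of glutamatergic to GABAergic level was 4.38 and 4.22 in ImP 3 and ImP 4, and 6.13 and 4.51 in vehicle 1 and vehicle 2. After thinning, 5.11% ± 0.343 of glutamatergic nuclei had a Bdnf UMI. Only 1.15% ± 0.439 of GABAergic nuclei did (SD, n = 4). Before thinning, microglia-like nuclei had 3 and 2 Bdnf UMIs in ImP 3 and ImP 4, and 0 and 1 in vehicle 1 and vehicle 2. Their share is too uncertain to decide whether GABAergic neurons express Bdnf.

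Regional and peptide gates were set side by side in the same way. Bdnf averaged 55.5 ± 5.42 CPM in neurons with the posterior hypothalamic gene Lmx1a and 48.5 ± 10.1 CPM in those with Sim1, a transcription factor of the paraventricular nucleus (SD, n = 4). These levels and the glutamatergic level of 54.2 ± 2.17 CPM were within each other's spread. Ventromedial-type neurons, gated on Nr5a1 and Fezf1, had 35.1 and 34.6 CPM in the ImP libraries, against 105 and 60.9 CPM in the vehicle libraries, from only 10 to 19 nuclei each. Levels averaged 26.4 ± 9.96 CPM in Esr1 neurons (15.7 to 35.5 CPM) and 21.8 ± 8.17 CPM in Lepr neurons (11.1 to 29.5 CPM), with overlapping ranges. The SDs of this paragraph are over libraries of both groups, so they include any difference between the groups. Histaminergic Hdc neurons, with 6.11 ± 2.37 CPM, Oxt neurons, with 7.43 ± 6.37 CPM, and Avp neurons, with 10.5 ± 7.34 CPM, stood lowest among the gates with at least 20 nuclei in every library. Pmch neurons, with 19 to 41 nuclei per library, were as low, with 6.45 ± 5.74 CPM. In Sim1 neurons, both ImP libraries were lower, with 46.4 and 35.1 CPM against 58.0 and 54.4 CPM in the vehicle libraries. In Esr1 neurons, both were higher, with 34.2 and 35.5 CPM in the ImP libraries, against 15.7 and 20.2 CPM in the vehicle libraries. Neuron groups overlap and were not tested.

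Ptprz1, the receptor of Ptn and Mdk, was highest in precursor-like and astrocyte-like nuclei. Precursor-like nuclei had 2035 and 2153 CPM in ImP 3 and ImP 4, against 1882 and 2108 CPM in vehicle 1 and vehicle 2. Astrocyte-like nuclei had 1358 and 1278 CPM in the ImP libraries, against 1465 and 1446 CPM in the vehicle libraries. Neuron-like nuclei had 235 and 275 CPM in the ImP libraries, against 227 and 229 CPM in the vehicle libraries. The ImP libraries were both below the vehicle libraries in astrocyte-like nuclei and both above in neuron-like nuclei, and the groups overlapped in precursor-like nuclei. A Ptprz1 UMI was found in 84.8% ± 3.92 of precursor-like, 73.7% ± 1.02 of astrocyte-like and 20.1% ± 1.72 of neuron-like nuclei after thinning, against 9.42% ± 6.10 of microglia-like and 7.94% ± 1.87 of oligodendrocyte-like nuclei (SD, n = 4). Oligodendrocyte-like nuclei thus combined the highest Ptn level of the large classes with a Ptprz1 share at the microglia-like background.

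Ntrk2, the TrkB gene, was highest of the 5 large classes in astrocyte-like nuclei, with 1116 and 1254 CPM in the ImP libraries and 1145 and 1157 CPM in the vehicle libraries. Neuron-like nuclei had 412 and 434 CPM in the ImP libraries, against 381 and 404 CPM in the vehicle libraries. Precursor-like nuclei had 406 and 509 CPM in the ImP libraries, against 442 and 486 CPM in the vehicle libraries. Both ImP libraries were above both vehicle libraries in neuron-like nuclei, and the groups overlapped in the glial classes just given. Tanycyte-like nuclei, few as they were, had more, with 1784 and 1512 CPM in ImP 3 and ImP 4, against 1550 and 1867 CPM in vehicle 1 and vehicle 2. The thinned share was 65.6% ± 2.78 in astrocyte-like, 33.3% ± 6.32 in precursor-like and 32.5% ± 1.52 in neuron-like nuclei, against 14.2% ± 1.29 in microglia-like and 11.96% ± 1.15 in oligodendrocyte-like nuclei (SD, n = 4). Precursor-like and neuron-like shares did not differ beyond their spread. The counts are per gene and do not separate the full-length kinase form of TrkB from the truncated form known from astrocytes.

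Ntrk3, the TrkC gene, had its highest levels of the 5 large classes in neuron-like and precursor-like nuclei. Neuron-like nuclei had 413 and 448 CPM in the ImP libraries, against 413 and 435 CPM in the vehicle libraries. Precursor-like nuclei had 374 and 423 CPM in the ImP libraries, against 482 and 421 CPM in the vehicle libraries. Groups overlapped in both classes. Astrocyte-like nuclei had less, with 250 and 178 CPM in the ImP libraries, against 276 and 215 CPM in the vehicle libraries. After thinning, the share was 31.3% ± 0.922 in neuron-like, 35.7% ± 1.91 in precursor-like and 19.6% ± 2.18 in astrocyte-like nuclei, against 3.17% ± 0.759 in oligodendrocyte-like and 1.54% ± 2.34 in microglia-like nuclei (SD, n = 4). The precursor-like level was 90.7% to 117% of the neuron-like level, below that of the peptide mRNAs (171% to 197%). Summed neuronal transmitter mRNAs (Slc32a1, Gad1, Gad2 and Slc17a6) stood lower there, at 38.6% to 58.4%, from 26 to 50 UMIs per library. The precursor-like share of Ntrk3 was above the microglia-like background.

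Alk had its highest levels of the 5 large classes in neuron-like and precursor-like nuclei. Neuron-like nuclei had 187 and 177 CPM in the ImP libraries, against 193 and 179 CPM in the vehicle libraries. Precursor-like nuclei had 151 and 153 CPM in the ImP libraries, against 171 and 136 CPM in the vehicle libraries. The groups overlapped in both. Astrocyte-like nuclei had 19.1 and 10.3 CPM in the ImP libraries, against 7.24 and 3.79 CPM in the vehicle libraries, from 28 and 11 UMIs, against 10 and 5, and the groups did not overlap. A UMI was found in 13.0% ± 0.468 of neuron-like and 14.4% ± 1.97 of precursor-like nuclei after thinning, against 1.62% ± 0.467 of oligodendrocyte-like and 1.03% ± 0.648 of astrocyte-like nuclei (SD, n = 4). Microglia-like nuclei had 1 and 0 Alk UMIs in the ImP libraries, and 0 and 1 in the vehicle libraries. The precursor-like level was 75.6% to 88.5% of the neuron-like level, below that of the peptide mRNAs (171% to 197%). It was above that of the summed transmitter mRNAs (38.6% to 58.4%), and the share was above those of the other glial classes.

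Within neurons, the receptors differed by peptide type. Pmch neurons, which make melanin-concentrating hormone, had 1191 and 1206 CPM of Alk in ImP 3 and ImP 4, against 875 and 1144 CPM in vehicle 1 and vehicle 2. That average is 6.00 times the level of all neuron-like nuclei, it rests on 19 to 41 nuclei and 130 to 317 UMIs per library, and both ImP libraries were above both vehicle libraries. Hcrt neurons, the orexin cells beside them in the lateral hypothalamus, had 53.2 and 49.0 CPM of Alk in the ImP libraries, against 17.4 and 16.7 CPM in the vehicle libraries, from 8 and 8 UMIs, against 2 and 2. Thinned shares with an Alk UMI were 46.4% ± 11.2 in Pmch and 1.85% ± 3.70 in Hcrt neurons, against 13.0% ± 0.468 in all neuron-like nuclei (SD, n = 4). Of the other 12 gates shown, Lef1 neurons had the highest mean Alk level, with 366 ± 34.4 CPM, or 1.99 times all neuron-like nuclei.

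The Trk receptor genes also differed between Hcrt and Pmch neurons. In Hcrt neurons Ntrk2 was 1064 and 508 CPM in the ImP libraries and 808 and 675 CPM in the vehicle libraries, from 15 to 28 nuclei per library. In Pmch neurons Ntrk2 was 293 and 291 CPM in the ImP libraries and 322 and 352 CPM in the vehicle libraries. Ntrk3 ran the other way, at 106 and 135 CPM in the ImP libraries and 165 and 142 CPM in the vehicle libraries in Hcrt neurons. Pmch neurons had 676 and 560 CPM of Ntrk3 in the ImP libraries and 609 and 607 CPM in the vehicle libraries. The ranges of the 4 libraries did not overlap between these neuron types for Ntrk2, Ntrk3 or Alk.

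Neurosecretory neurons were low in Ptprz1, with 72.3 ± 33.8 CPM in Avp and 83.9 ± 29.1 CPM in Oxt neurons, against 241 ± 22.4 CPM in all neuron-like nuclei (SD, n = 4). Those 2 groups did not differ beyond their spread. Avp neurons were also low in Ntrk3, with 221 ± 34.0 CPM against 427 ± 17.3 CPM in all neuron-like nuclei. The Lepr neurons, which carry the leptin receptor, had 550 and 600 CPM of Ntrk2 in the ImP libraries, against 472 and 478 CPM in the vehicle libraries. Hdc neurons had 340 and 283 CPM of Ntrk2 in the ImP libraries, against 235 and 234 CPM in the vehicle libraries. Both ImP libraries were above both vehicle libraries in each of these gates.

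**Figure D3:**
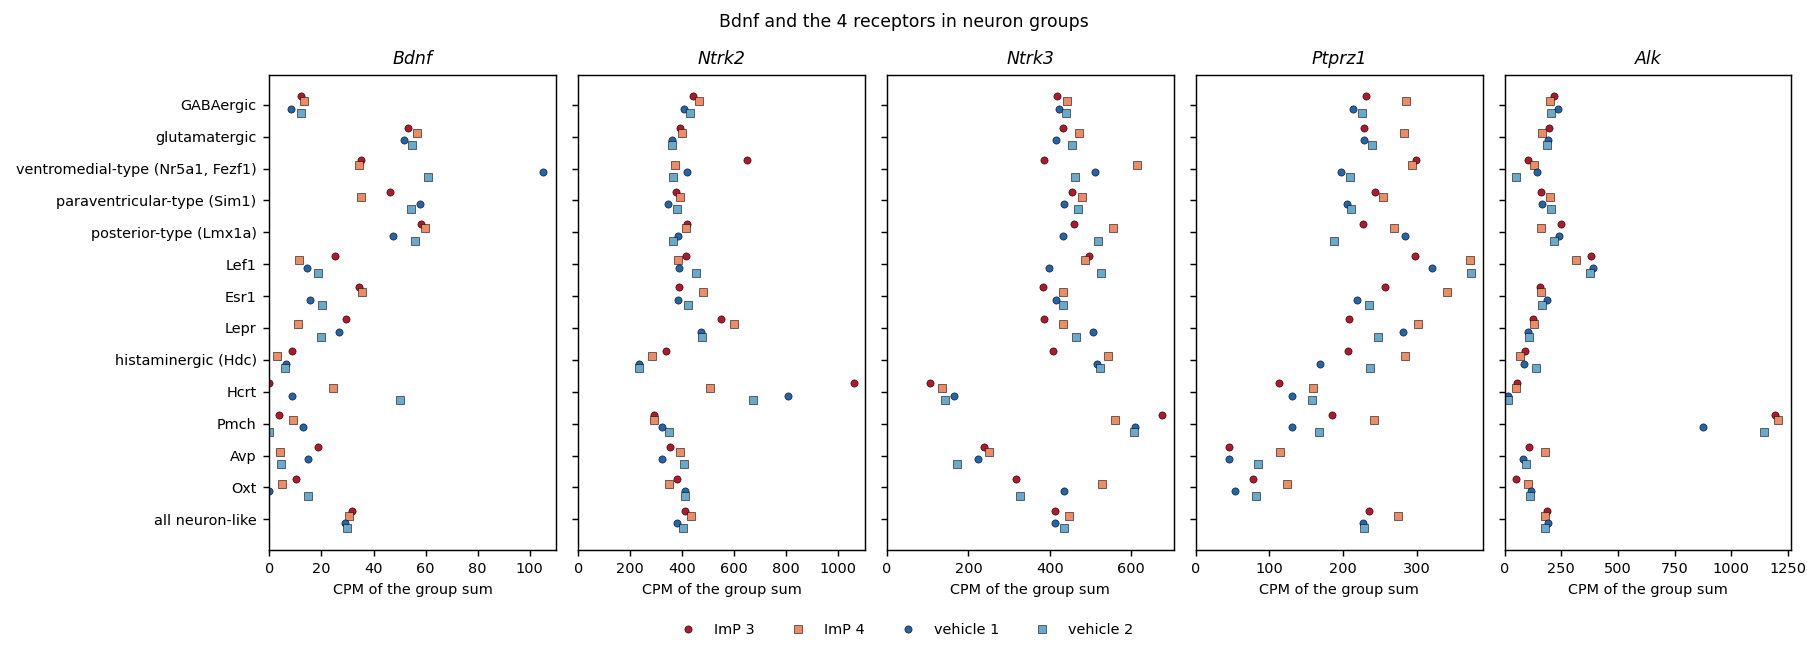
CPM of the group sum (x axes, linear, from 0) of Bdnf and the 4 receptors in 13 neuron groups with at least 10 nuclei in every library and in all neuron-like nuclei, 1 point per library, with the ImP libraries above the vehicle libraries in each row. Bdnf lay at 51.8 to 56.9 CPM in glutamatergic and 8.46 to 13.5 CPM in GABAergic neurons, and Alk at 875 to 1206 CPM in Pmch neurons.

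Whether ImP altered the genes within a class was tested with edgeR's quasi-likelihood test on class sums, with Benjamini-Hochberg adjustment over all genes and a threshold of 0.05. None of the 8 genes passed in any class. In neuron-like nuclei the test called 1 of 20306 genes (0.00492%), while 1426 had an unadjusted p under 0.05. In all kept nuclei it called 1 of 21287 (0.0047%), while 1739 did. It called 0 of 11669 genes in astrocyte-like (0%), 0 of 10884 in oligodendrocyte-like (0%) and 0 of 4383 in precursor-like nuclei (0%). Here 1056, 1039 and 364 genes had an unadjusted p under 0.05, in that order. DESeq2's Wald test called 227 genes in neuron-like nuclei (0.804%) and 372 in all kept nuclei (1.3%), with Nenf, Ptn and Mdk among them in both. It called 1 gene in astrocyte-like (0.00468%), 7 in oligodendrocyte-like (0.0338%) and 0 in precursor-like nuclei (0%), none of them among the 8.

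Nenf had a positive ratio in each tested class. Its log2 ratio of ImP over vehicle was 0.57 (SE 0.105, adjusted p = 0.338, edgeR) in neuron-like nuclei and 1.14 (SE 0.197, adjusted p = 0.295) in astrocyte-like nuclei. In oligodendrocyte-like nuclei the ratio was 0.79 (SE 0.182, adjusted p = 0.336) and in precursor-like nuclei 1.12 (SE 0.416, adjusted p = 0.474). All kept nuclei together gave 0.69 (SE 0.125, adjusted p = 0.292). In neuron-like nuclei the adjusted p ran from 0.00104 with DESeq2 to 1 over 13 alternatives, with log2 ratios from 0.46 to 0.70, and it was 0.00529 in edgeR without ImP 3. In astrocyte-like nuclei it was 5.19e-05 with no filter on low counts and 0.0400 with nuclei of at least 1000 genes, within 5.19e-05 to 0.430 over 13 alternatives. In oligodendrocyte-like nuclei it was 0.0140 without ImP 3, within 0.0140 to 0.828, and in all kept nuclei 0.0256 without ImP 4, within 0.000117 to 1 over 11 alternatives.

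Beside these ratios, the 4 peptide mRNAs had log2 ratios of group means of 0.74 in neuron-like, 0.79 in astrocyte-like, 0.77 in oligodendrocyte-like and 0.86 in precursor-like nuclei. Summed ribosomal protein mRNAs had ratios of 0.43, 0.49, 0.45 and 0.50 in the same classes. Neuronal transmitter mRNAs (Slc32a1, Gad1, Gad2 and Slc17a6 summed) had 0.05 in neuron-like nuclei, 0.57 in astrocyte-like and 0.56 in oligodendrocyte-like nuclei. The part of free RNA, and of the lower UMI number per nucleus in the ImP libraries, in the Nenf, Ptn and Mdk differences was not tested.

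Ptn had log2 ratios of 0.52 in neuron-like nuclei (SE 0.0939, adjusted p = 0.338, edgeR) and 0.49 in all kept nuclei (SE 0.0990, adjusted p = 0.292). In the classes where its share was above the microglia-like background, the ratios were 0.29 in astrocyte-like (SE 0.158, adjusted p = 0.628), 0.21 in oligodendrocyte-like (SE 0.167, adjusted p = 0.726) and 0.10 in precursor-like nuclei (SE 0.201, adjusted p = 0.981). In neuron-like nuclei the adjusted p was 0.00126 with DESeq2 and 0.00578 in edgeR without ImP 3, within 0.00126 to 1 over 13 alternatives. Mdk had ratios of 0.52 in astrocyte-like (SE 0.259, adjusted p = 0.595) and 1.32 in oligodendrocyte-like nuclei (SE 0.308, adjusted p = 0.337). The oligodendrocyte-like adjusted p was 0.0441 with no filter on low counts, within 0.0441 to 0.654 over 12 alternatives.

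Bdnf had a log2 ratio of 0.11 in neuron-like nuclei (SE 0.0731, adjusted p = 0.868, edgeR), 0.44 in astrocyte-like (SE 0.341, adjusted p = 0.762) and 1.49 in oligodendrocyte-like nuclei (SE 0.388, adjusted p = 0.377). The last of these rests on the few UMIs given above, in a class where Bdnf lay below the free peptide mRNAs. In neuron-like nuclei the receptors had ratios of 0.12 for Ntrk2, 0.04 for Ntrk3, 0.18 for Ptprz1 and -0.01 for Alk, with SEs of 0.0607 to 0.0850 and adjusted p of 0.769 to 0.980 (edgeR). In precursor-like nuclei they lay between -0.18 for Ntrk3 and 0.07 for Ptprz1, with adjusted p of 0.937 to 1.00. In astrocyte-like nuclei they were 0.06 for Ntrk2 (SE 0.141), -0.17 for Ntrk3 (SE 0.189), -0.13 for Ptprz1 (SE 0.133) and 1.45 for Alk (SE 0.477), with adjusted p of 0.940, 0.838, 0.834 and 0.375, in that order. None of the receptor ratios passed under any alternative tried.

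**Figure D4:**
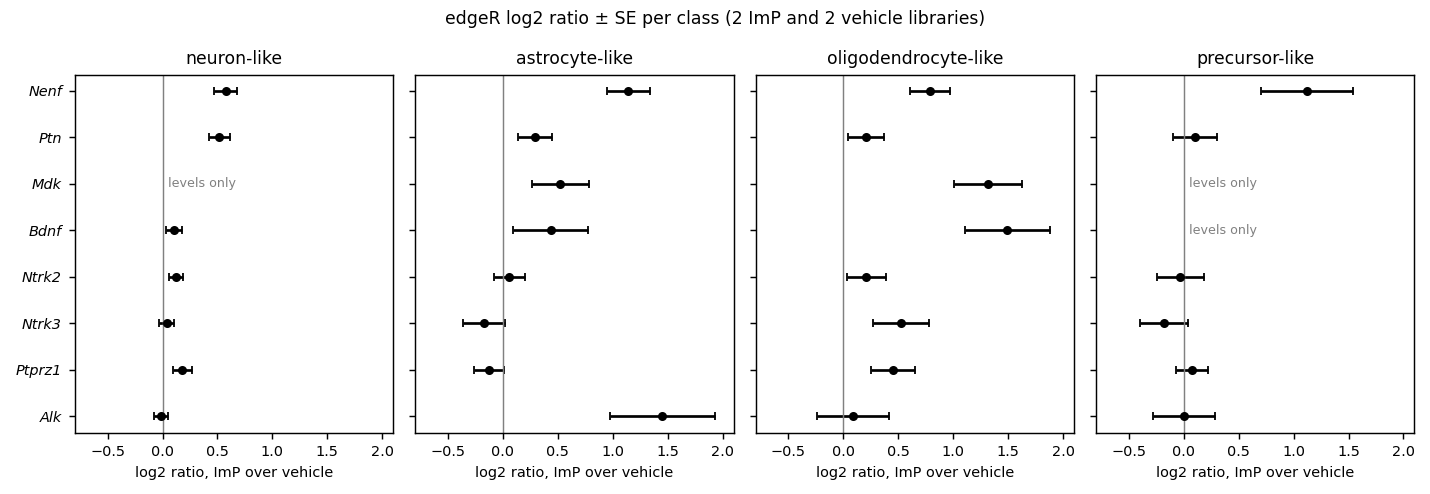
log2 ratio of ImP over vehicle (x axis) with its SE for each gene in 4 nuclear classes, from edgeR on 2 ImP and 2 vehicle libraries; genes under 10 CPM or removed by the low count filter are marked as levels only. Nenf lay at 0.57 to 1.14 in all 4 classes, and the receptors in neuron-like nuclei at -0.01 to 0.18.

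Both ImP libraries were above both vehicle libraries for 6 of the 8 genes in neuron-like nuclei, where 17% of all tested genes were (20.5% were lower in both, and 0 of the 8). In astrocyte-like nuclei this held for 5 of 8 (20.3% of all genes), with Ptprz1 lower in both (19.4% of all genes). In oligodendrocyte-like nuclei it held for 7 of 8 (22.3%), and in precursor-like nuclei for 1 of 6 tested (18.6%), with 0 lower in both (18.3%). In all kept nuclei it held for 6 of 8 (18.9%), with 0 lower in both (21.3%). The median log2 ratio of the tested members was 0.15, 0.36, 0.49 and 0.04 in neuron-like, astrocyte-like, oligodendrocyte-like and precursor-like nuclei, and that of all tested genes lay within 0.01 of 0. These counts describe genes picked with such results known.

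The difference of the ImP ratio between astrocyte-like and neuron-like nuclei was tested in 1 model of both classes that held the library as a block. Of 20082 genes, 14 passed (0.0697%), and the unadjusted p was under 0.05 for 1189. None of the 8 genes passed. Nenf differed by 0.54 (SE 0.179, adjusted p = 0.363, edgeR), Alk by 1.45 (SE 0.428, adjusted p = 0.214) and Ptprz1 by -0.33 (SE 0.143, adjusted p = 0.749), astrocyte-like minus neuron-like. The adjusted p over 8 alternatives was 0.310 to 1 for Nenf and 0.109 to 1 for Alk.

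**Figure D5:**
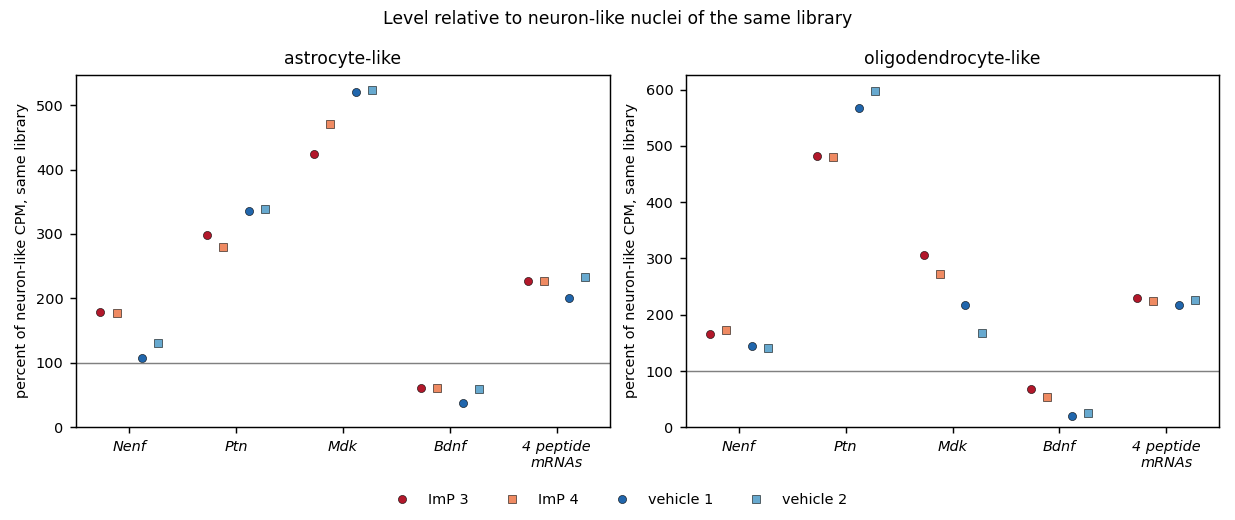
Level of 4 ligand genes and of the summed peptide mRNAs Hcrt, Pmch, Oxt and Avp in astrocyte-like and oligodendrocyte-like nuclei as a percent of the neuron-like CPM of the same library (y axis, from 0; the line marks 100%), 1 point per library, ImP left of vehicle. Ptn at 279% to 598% lay above the peptide mRNAs (201% to 233%) in both classes, and Nenf at 108% to 179% lay below them.

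Other genes of these pathways gave no call. In 7 lists (neurotrophins and their receptors; receptors of Ptn, Mdk and ligands of Alk; relatives of Nenf; GDNF family and unconventional factors; proneurotrophin cleavage; Trk adaptors; matrix ligands of Ptprz1), 0 genes rose and 0 fell in any class in edgeR. Of the 12 tested neurotrophin and receptor genes in neuron-like nuclei, 3 were higher and 1 lower in both ImP libraries, with a median log2 ratio of 0.04. Over all tested genes in neuron-like nuclei these shares were 17% and 20.5%, the background for each list count in that class given here. This list, the Ptn, Mdk and Alk list and the list of Nenf relatives include members that were selected with such differences known, so their counts are descriptions. Sorcs1, which encodes a sorting receptor of the sortilin family, had 487 and 512 CPM in the ImP libraries and 467 and 488 CPM in the vehicle libraries. Of 16 tested Ptn, Mdk and Alk pathway genes, 7 were higher (17% of all tested genes) and 3 lower (20.5%) in both ImP libraries in neuron-like nuclei. Among them was the syndecan gene Sdc2, a heparan sulfate proteoglycan that binds such factors, with 87.9 and 89.6 CPM in the ImP libraries and 82.5 and 81.8 CPM in the vehicle libraries (log2 ratio 0.13, SE 0.0610, adjusted p = 0.769, edgeR).

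The relatives of Nenf, which share its cytochrome b5-like domain, were higher in both ImP libraries for 3 of 4 genes in neuron-like nuclei (17% of all tested genes), Nenf included, with a median log2 ratio of 0.39. Pgrmc1, a heme-binding membrane protein, had 168 and 225 CPM in the ImP libraries, against 125 and 161 CPM in the vehicle libraries (log2 ratio 0.48, SE 0.169, adjusted p = 0.603, edgeR). Pgrmc2 had 20.7 and 23.9 CPM in the ImP libraries, against 18.5 and 18.2 CPM in the vehicle libraries (0.30, SE 0.0979, adjusted p = 0.548). The fourth gene, Cyb5d2, overlapped, with 12.3 and 13.6 CPM in the ImP libraries and 11.7 and 12.5 CPM in the vehicle libraries.

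Of 11 tested GDNF family and unconventional factor genes in neuron-like nuclei, 1 was higher in both ImP libraries (17% of all tested genes). Manf, which encodes a protein of the endoplasmic reticulum that is also secreted, had 117 and 134 CPM in the ImP libraries and 100 and 118 CPM in the vehicle libraries there, with an overlap. In precursor-like nuclei Manf had 171 and 245 CPM in the ImP libraries, against 110 and 107 CPM in the vehicle libraries (log2 ratio 0.90, SE 0.293, adjusted p = 0.428, edgeR). Of 9 tested cleavage genes 1 was higher (17% of all tested genes) and 2 were lower (20.5%) in both ImP libraries in neuron-like nuclei. Pcsk7, a proprotein convertase, was among the lower, with 69.2 and 67.6 CPM in the ImP libraries and 77.4 and 70.0 CPM in the vehicle libraries.

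Of 14 tested Trk adaptor genes in astrocyte-like nuclei, 7 were lower in both ImP libraries and 0 higher. Their median log2 ratio was -0.19, and of all tested genes 19.4% were lower and 20.3% higher in both. In oligodendrocyte-like nuclei 4 of 14 adaptor genes were lower in both (18.7% of all tested genes) and 3 higher (22.3%). In precursor-like nuclei 2 of 10 were lower (18.3%) and 2 higher (18.6%). Gab1, a docking protein downstream of receptor tyrosine kinases, had 153 and 145 CPM in astrocyte-like nuclei of the ImP libraries, against 190 and 172 CPM in those of the vehicle libraries. Its log2 ratio there was -0.26 (SE 0.163, adjusted p = 0.683, edgeR). In neuron-like nuclei Gab1 was sparse but higher in both ImP libraries, with 10.7 and 12.7 CPM against 8.91 and 9.42 CPM in the vehicle libraries. Its mean was 10.4 CPM in neuron-like, 165 CPM in astrocyte-like and 587 CPM in oligodendrocyte-like nuclei. The part of free glial RNA in the neuron-like value was not tested. In neuron-like nuclei 2 of 16 adaptor genes were higher in both ImP libraries (17% of all tested genes) and 3 lower (20.5%). Of 10 matrix and adhesion ligands of Ptprz1, 1 was higher and 4 were lower in both ImP libraries in neuron-like nuclei, beside the same shares of all genes, among the lower L1cam, an adhesion molecule of axons, with 53.5 and 54.4 CPM in the ImP libraries and 62.6 and 56.4 CPM in the vehicle libraries.

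The genes whose pattern over the 5 large classes was most like each member were found by Pearson's r of log2(CPM + 1), averaged over the 4 libraries. Over 5 points many genes come close: 3 to 20 of 13529 genes had an r above 0.99 with a given member. Ntrk2 was most like Fgfr1, a fibroblast growth factor receptor, at 0.998, and Ptprz1 most like Macrod1, at 0.997, and Spon1, at 0.996. Bdnf was most like Rasgrp1, at 1.00, and Alk most like Ncapg2, at 0.999. The points share their libraries and depth, and no meaning is read from the likeness.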

How the data were processed

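The deposited tables give UMI counts, whole numbers for each gene in each barcode. The authors used the build GRCm39 and Cell Ranger 8.0.1. Seurat 5.0.0 is listed too, both per the submitters' processing notes. Per the labels, nuclei from snap-frozen hypothalamus were run with 10x Genomics 3′ chemistry. Handling of intronic reads is not given in the sources used here.

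Nuclei with at least 500 genes and at most 5% mitochondrially encoded UMIs were kept. A nucleus joined a class when at least 3 of the 10 markers had a UMI and the share of markers was at least 2 times that of every other class. This leaves out nuclei with mixed markers, and no doublet caller was run. Neuron groups needed 2 UMIs of their genes, or, for a peptide, 10 UMIs and 0.2% of the nucleus. The pituitary markers included Gh and Prl, which left more ImP 4 nuclei unassigned.

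Summed counts of each class in each library were tested with edgeR 4.0.16 (R 4.3.3, TMM, minimum count of 10, classes with 20 nuclei in every library), with SEs from the test statistic. DESeq2 1.42.0 was an alternative, and scripts ran in Python 3.11.15. The edgeR fit was also run on simulated counts of neuron-like and precursor-like sums, with a fixed dispersion and no free RNA. That does not test how the fit handles the differences between these libraries. With 2 libraries per group, an exact permutation test could not reach the threshold and was not used.

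The members, gene lists and classes were chosen with earlier results of these data known. The 8 members are named throughout, with a ratio where they averaged at least 10 CPM. Of a list, the 3 genes of smallest p in neuron-like nuclei at 10 CPM could be named, and for likeness the 5 nearest genes. Coordinates are not given, because the reference at hand was of another build.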

Additional observations from a re-analysis of the deposited data

Results flagged for a closer look

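Ptprz1 had a log2 ratio of ImP over vehicle of 0.18 in neuron-like nuclei, where both ImP libraries were above both vehicle libraries. In astrocyte-like nuclei the ratio was -0.13, with both ImP libraries below. The difference between these classes was tested and did not pass (-0.33, SE 0.143, adjusted p = 0.749, edgeR, both classes in 1 model). In oligodendrocyte-like nuclei the ratio was 0.45, with both ImP libraries above, and its difference from astrocyte-like nuclei was not tested.

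Within neurons, 4 genes had groups in which both ImP libraries lay above both vehicle libraries and others in which both lay below. None of these differences was tested, the groups overlap, and values are log2 ratios of group means of CPM. Bdnf had 0.96 in Esr1 and 0.19 in Lmx1a neurons, and -0.46 in Sim1 and -1.25 in ventromedial-type neurons, the last from 10 to 19 nuclei. Ntrk2 had 0.12 in GABAergic, 0.13 in glutamatergic, 0.15 in Lmx1a, 0.28 in Lepr and 0.41 in Hdc neurons, and -0.21 in Pmch and -0.17 in Oxt neurons. Ntrk3 had 0.30 in Avp, and -0.25 in Lepr and -0.35 in Hcrt neurons. Alk had 0.29 in Lepr, 1.59 in Hcrt, 0.25 in Pmch and 0.73 in Avp neurons, and -0.17 in Esr1 and -0.58 in Oxt neurons. Over 13 groups, at a mean of at least 10 CPM, the libraries of the groups overlapped in 6 of 10 for Bdnf, 6 of 13 for Ntrk2, 10 of 13 for Ntrk3 and 7 of 13 for Alk. Of all genes at that level, 61% to 67.4% overlapped in a given group, 16.6% to 20.6% were higher in both ImP libraries and 14.4% to 21.8% lower.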

How the results depend on the processing

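No paired analysis was possible because the library numbers of the labels run from 1 to 4 and none is shared between the groups. Size factors of DESeq2's kind, gates with 2 or 4 markers and the gate without Gh and Prl (chosen after seeing the data) changed no count of calls by over 1.5 times. The interaction gave 15 with those size factors, beside 14. No receptor passed the threshold under any alternative. The cause of the changes below was not tested.

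Of the 8 members, 3 passed with DESeq2 in neuron-like nuclei (0.804% of all genes, 227 of 28232) and 3 in all kept nuclei (1.3%, 372 of 28720). In astrocyte-like nuclei 1 of 8 passed with no filter on low counts (102 of 21381 genes). There 1 of 7 tested members passed with 1000 genes per nucleus (17 of 8985 genes). In oligodendrocyte-like nuclei 1 of 8 passed with no filter (70 of 20698 genes). Leaving out 1 library at a time leaves 1 library in a group, so no counts are given for those fits. Across them, the log2 ratio in neuron-like nuclei ran from 0.46 to 0.70 for Nenf and from 0.41 to 0.63 for Ptn.

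All genes called numbered 0 in neuron-like nuclei with no filter, 227 with DESeq2 and 4 after thinning to 1000 UMIs per nucleus. In all kept nuclei they numbered 0, 372 and 2 under these settings. In oligodendrocyte-like nuclei they numbered 70, 7 and 4. In astrocyte-like nuclei they numbered 102 with no filter, 1 with DESeq2 and 17 with 1000 genes per nucleus. Precursor-like nuclei gave 14 with no filter, and the interaction 2 after thinning. Without 1 library, the calls ranged from 0 to 372 in neuron-like, 0 to 9 in astrocyte-like, 2 to 228 in oligodendrocyte-like and 0 to 45 in precursor-like nuclei (each highest without ImP 3), 0 to 157 in all kept nuclei (highest without ImP 4) and 1 to 56 for the interaction (highest without vehicle 2).

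Ratios near 0 changed sign. Alk became 0.0284 in neuron-like nuclei without the highest 10% of UMIs and 0.0457 after thinning. In all kept nuclei it became 0.0142 and 0.0373 under these settings. In precursor-like nuclei it became -0.0283 with no filter, -0.0174 with DESeq2, -0.0184 with 4 markers and -0.23 after thinning. With 1000 genes per nucleus Ntrk2 became 0.0373 in precursor-like nuclei and Ntrk3 0.00112 in all kept nuclei. Without 1 library, Ntrk3 ran from -0.0255 to 0.11 in neuron-like, -0.43 to 0.0280 in astrocyte-like and -0.0621 to 0.0316 in all kept nuclei, and its interaction from -0.55 to 0.0392. Alk ran from -0.0458 to 0.0303 in neuron-like, -0.35 to 0.32 in oligodendrocyte-like and -0.14 to 0.13 in precursor-like nuclei. Ntrk2 ran from -0.0448 to 0.15 in astrocyte-like and -0.19 to 0.14 in precursor-like nuclei. In precursor-like nuclei Ptn ran from -0.00672 to 0.22 and Ptprz1 from -0.0444 to 0.18. Thinning moved 25 of 40 shares of nuclei by more than their SD, so shares are compared after thinning.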
